A study of Mus musculus with 9 samples.

Results

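The mRNAs that encode the machinery of mRNA deadenylation, decapping and decay were examined in mouse macrophages expressing either form of tristetraprolin (TTP, gene Zfp36) or GFP alone. The set held 47 genes, chosen by name, of 25494 genes in the deposited fitted table, and all 47 were listed in each of the 3 comparisons, which covered 11977 genes for TTP vs GFP and 13205 genes for either comparison with TTP-AA. They fell into CCR4-NOT with its TOB adaptors (12 genes), PAN and other poly(A) factors (5), decapping and 5′-3′ decay (10), the exosome with its SKI helper (13), nonsense-mediated decay (NMD, 6) and the 4EHP-GYF factor Gigyf2 (1). All libraries came from bone marrow-derived macrophages of TTP-deficient mice that had been immortalized with the oncogenes hcmyc and hRasG12V, chosen as CD11b and F4/80 positive, and transduced with a retroviral tet-inducible vector. The GFP group received the vector for GFP only, the TTP group GFP–TTP, and the TTP-AA group GFP–TTP-AA, in which 2 serines are changed to alanine (S52A and S178A) so that the kinase MK2 cannot phosphorylate them. Every group was given doxycycline for 6 h and lipopolysaccharide (LPS, a bacterial trigger of inflammation) for 1 h, each at 1 µg/ml, and had 3 libraries of total RNA depleted of ribosomal RNA. Each construct was carried by its own transduced cell population, so construct and population cannot be told apart, and no library without doxycycline or without LPS was analysed here.

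TTP binds AU-rich elements in the 3′UTR of mRNAs for cytokines and other inflammatory mediators and brings the decay machinery to them. CCR4-NOT, which TTP contacts directly, shortens the poly(A) tail, DCP2 and its activators then remove the cap, XRN1 degrades the body from the 5′ end, and the exosome with the SKI complex degrades it from the 3′ end. Phosphorylation of TTP by MK2 after LPS favours binding of 14-3-3 proteins and lowers the recruitment of CCR4-NOT, and the alanine form escapes this switch. The comparisons below ask whether the mRNAs of the machinery itself differed between cells with GFP, TTP and TTP-AA.

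The deposited value of a gene in a library was a fitted mean of the authors' DESeq2 model and held no scatter between replicates, so levels are descriptions. All errors and tests came from the deposited comparison tables (SE of the log2 fold change, Wald test adjusted over all listed genes). The model was fitted over all 9 libraries, 3 per group, which share a dispersion per gene, so each SE also rests on the group outside the comparison. The 3 values of a group differed only through the model's term with the same partition as the replicate numbers. Their p-values measure the spread between these libraries, which may be technical. Library sums ranged from 2.15e+07 (TTP replicate 1) to 1.03e+08 (TTP-AA replicate 3), and levels were scaled to parts per 1000000 of the library sum (ppm). Zfp36 itself was at 24.8 to 49.8 ppm in GFP, 25.2 to 50.9 in TTP and 39.8 to 80.0 in TTP-AA libraries. Its log2 fold change was 0.04 ± 0.17 (SE) in TTP vs GFP (DESeq2 adjusted p = 0.930) and, for TTP-AA against GFP, 0.69 ± 0.17 (adjusted p = 0.000682). In TTP-AA vs TTP it was 0.65 ± 0.17 (DESeq2 adjusted p = 0.000902), so Zfp36 reads also differed between the 2 forms. Since reads of the endogenous locus and of the transgene were not separated, this gene does not check the TTP label. Summed over 8 macrophage markers, all listed, the fitted level was 15829 to 21051 ppm in GFP and 13012 to 17453 in TTP. In TTP-AA it was 17805 to 23651 ppm. Most of this sum was Lyz2, whose mean level was 16134.9 ppm. At a DESeq2 adjusted p under 0.05, 0 of the 8 rose and 2 fell in TTP vs GFP (log2 fold change -0.75 for Adgre1 and -1.20 for Fcgr1). In TTP-AA vs GFP 1 rose (Adgre1, 0.68) and 0 fell. In TTP-AA vs TTP 3 rose (Adgre1 at 1.43, Fcgr1 at 0.82 and Lyz2 at 0.46) and 1 fell (Ptprc at -0.34). Adgre1 encodes F4/80, for which the cells had been chosen. Of all listed genes, 9.16%, 17.9% and 28.6% were called in these comparisons. Summed markers of fibroblasts, T cells, B cells and mast cells were each under 1 ppm, with Col1a1, Col1a2, Pdgfra, Dcn, Lum, Cd8a, Ms4a1, Cd79a, Cd79b and Fcer1a under a fitted value of 10 in every library. The summed neutrophil markers were at 3.15 to 5.17 ppm in GFP, 3.16 to 5.22 in TTP and 5.30 to 8.71 in TTP-AA, and the 1 that was listed, S100a8, rose by 0.76 in TTP-AA vs GFP and by 0.74 in TTP-AA vs TTP on the log2 scale. The summed dendritic cell markers were at 7.98 to 9.15 ppm in GFP, 7.60 to 8.81 in TTP and 6.30 to 7.36 in TTP-AA, and of the 3 listed Zbtb46 fell by 1.10 and 1.06. The part of these marker levels in the results was not tested, and in bulk RNA fewer cells of a kind and less RNA per cell cannot be told apart.

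TTP binds AU-rich letters whose preferred form is a nonamer with a UAUUUAU core, so the core is shown first in the 3′UTRs of the machinery. The letters TATTTAT, which contain the pentamer ATTTA, were searched on the sense strand of 1 annotated 3′UTR per gene (GENCODE M21, the transcript with the longest coding sequence, genome build GRCm38). Of the 47 members, 11 held it (23.4%), against 3142 of 11458 listed genes with a 3′UTR (27.4%). The nonamer TTATTTATT, which contains TATTTAT, was in 1 member (2.13%) and in 7.10% of listed genes. The shorter pentamer ATTTA was in 34 members (72.3%) and in 66.0% of listed genes. The 11 members with TATTTAT were Cnot3, Cnot6, Cnot7, Cnot8, Tob2, Pan3, Dcp1a, Dcp1b, Dcp2, Edc3 and Ttc37, with 2 copies each in Cnot6 and Dcp2. The 5 windows printed here belong to Cnot8 and Ttc37, which fell in TTP-AA cells, to Pan3, which rose, and to Cnot7 and Tob2, the relatives of the falling Cnot8 and Tob1 that did not pass the test, with the motif in capitals and 10 bases on each side.
Cnot8 (chr11:58118538-58118564, + strand, position 960 of a 1006-base 3′UTR): ttgtaaatatTATTTATgtttttaatt
Cnot7 (chr8:40493116-40493142, - strand, position 855 of 951): tttataaacaTATTTATgatgttcttg
Ttc37 (chr13:76189941-76189967, + strand, position 1539 of 1904): atttcattgtTATTTATatttgatttt
Pan3 (chr5:147547931-147547957, + strand, position 2195 of 2750): ctttgttttaTATTTATttttcatttc
Tob2 (chr15:81849861-81849887, - strand, position 852 of 2457): atcacctgctTATTTATgtacgaggtt
In Cnot8 and Cnot7 the motif lay near the end of the 3′UTR in both. No TATTTAT was in the 3′UTR searched for Tob1 (767 bases), Ddx6 (4250 bases), Xrn1 (218 bases) or Gigyf2 (1651 bases), 4 members that fell in TTP-AA cells. The number of ATTTA pentamers in these 3′UTRs was 3 for Tob1, 7 for Ddx6, 1 for Xrn1 and 0 for Gigyf2. A match describes letters in an annotated sequence and does not show binding. In TTP-AA vs TTP, 1 of the 11 members with the motif rose and 3 fell, and 4 of the 36 without it rose and 9 fell, with median log2 fold changes of -0.14 and -0.10. Of all listed genes in that comparison, 12.3% rose and 18.6% fell with the motif, and 15.5% rose and 14.8% fell without it. In TTP-AA vs GFP 1 of the 11 members with the motif rose and 3 fell, and 1 of the 36 without it rose and 4 fell, while of all listed genes 6.75% rose and 16.1% fell with the motif and 10.5% rose and 7.13% fell without it. The members with the motif had longer 3′UTRs (median 2457 against 862 bases), and so had the listed genes with it (1989 against 693). Motif and 3′UTR length were therefore not separated in any of these shares. Over all listed genes the median log2 fold change was -0.05 with and -0.01 without the motif in TTP-AA vs TTP, and -0.07 and 0.02 in TTP-AA vs GFP.

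**Figure D1:**
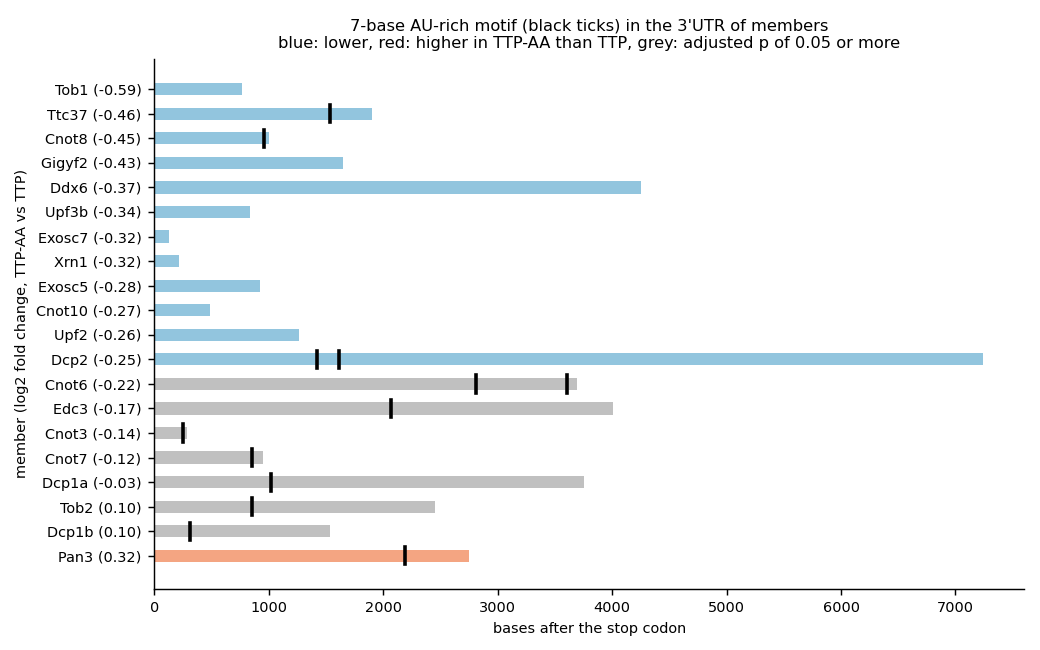
Map to scale of the 3′UTR of the members that hold TATTTAT and of those lower in TTP-AA than in TTP, sorted by that log2 fold change (in parentheses). The horizontal axis gives bases after the stop codon, black ticks mark the motif, and bars are blue where the member fell, red where it rose and grey where the adjusted p was 0.05 or more. Of the 12 members that fell, 3 carry a tick (Ttc37, Cnot8 and Dcp2), and the motif also stands in 7 members in grey and in Pan3 in red.

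The decay machinery was expressed in all libraries. The median level in ppm per kb of exon was 11.1 over the 47 members against 5.80 over 13133 listed genes. The exosome and SKI members had a median of 12.9, CCR4-NOT 11.7, NMD 8.35, decapping and 5′-3′ decay 5.65 and PAN and other poly(A) factors 5.29. Pabpc1, the main cytoplasmic poly(A)-binding protein, was the most abundant at 103, and Dcp1b, a decapping coactivator, the least at 0.681. On this scale levels differed inside a complex. The exosome core subunits Exosc2, Exosc3 and Exosc4 stood at 42.4, 38.2 and 41.1 ppm per kb, and Exosc1 at 9.65. The length used was that of all annotated exons of a gene merged. It was 4053 bases for Exosc1, whose searched transcript has 1018, and 1324 for Exosc3, whose transcript has 1077. Differences in level between genes therefore depend on the length chosen. Exons of some members share sequence with other genes, and reads placed at up to 2 positions were kept, so their levels are uncertain. The share of 50-base windows found in another gene was 75.2% for Pabpc4 (Gm10110), 32.1% for Cnot3, 21.1% for Edc3 (Clk3) and 20.7% for Pabpc1. It was 18.2% for Exosc9 (Ccna2), 15.9% for Exosc5 (Tmem91), 11.8% for Exosc4 (Oplah) and 10.0% for Cnot1. Lower shares were 9.85% for Cnot8 (Gm18860), 4.49% for Ddx6 (Gm13410) and 4.33% for Xrn1 (C78334), and 0 for Tob1, Pan3, Patl1, Ttc37, Upf2 and Gigyf2.

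Few members differed between cells with wild-type TTP and GFP cells at the threshold used. In TTP vs GFP, 1 of the 47 members rose and 0 fell at an adjusted p under 0.05 (DESeq2), where 4.08% of all listed genes rose, 5.08% fell and 9.16% changed in all. At an unadjusted p under 0.05 the members numbered 8 higher and 1 lower. The share of all listed genes at that unadjusted threshold was not computed, here or below. Such counts therefore do not set the members apart from other genes. The median log2 fold change of the members was 0.04 against 0.01 over all genes. Exosc1, a cap subunit of the exosome, was the member that rose, with a log2 fold change of 0.39 ± 0.11 (SE, adjusted p = 0.00434, DESeq2). The genes of its chromosome 19 had a median of 0.20 in the same comparison, and with that median subtracted Exosc1 stood at 0.19 and did not pass (DESeq2 SE, recomputed adjusted p = 0.351). The 46 other members lay between -0.40 (Pan2) and 0.34 (Upf3b). For 44 of the 47 the 95% interval of the log2 fold change lay within 0.5 of 0, the exceptions being Pan2, Exosc1 and Upf3b. The number was 38 in TTP-AA vs GFP and 35 in TTP-AA vs TTP. A member inside this margin can still pass the test, as Cnot2 did in TTP-AA vs TTP (interval 0.12 to 0.48). The share of all listed genes inside it was not computed.

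More members passed the test in the comparisons with TTP-AA, as did more of all listed genes. In TTP-AA vs GFP, 2 members rose (Pan3, Exosc1) and 7 fell (Cnot8, Tob1, Dcp2, Ddx6, Xrn1, Ttc37, Gigyf2), where 9.11% of all listed genes rose, 8.77% fell and 17.9% changed, against 19.1% of the members. Their median log2 fold change was 0.00, as was that of all genes. In TTP-AA vs TTP, 5 members rose (Cnot2, Pan3, Patl1, Smg1, Smg5) and 12 fell (Cnot8, Cnot10, Tob1, Dcp2, Ddx6, Xrn1, Exosc5, Exosc7, Ttc37, Upf2, Upf3b, Gigyf2), which is 36.2% of the members beside 28.6% of all listed genes, of which 14.0% rose and 14.6% fell. The median of the members was -0.12 and that of all genes -0.01, and 35 of the 47 were below 0 beside 6785 of 13205 genes. The median SE in TTP-AA vs TTP was 0.10 for the members and 0.13 for all listed genes. The 2 shares called are therefore not at equal precision. The comparisons TTP vs GFP and TTP-AA vs GFP share the GFP libraries, and both comparisons of TTP-AA share its libraries, so the 7 members lower in both of the latter are not an independent repeat. Over the 3 comparisons 18 members passed the test at least once and 29 never did. The matching shares of all listed genes, and the share lower in both comparisons of TTP-AA, were not computed. With the scores divided by their central spread over all genes (the interquartile range relative to a standard normal), which was 1.77 in TTP-AA vs GFP and 2.17 in TTP-AA vs TTP, only Tob1 and Cnot8 passed in the first (adjusted p = 0.0270 and 0.0483 from the rescaled DESeq2 scores) and none in the second, where 4 members had an unadjusted p under 0.05.

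**Figure D2:**
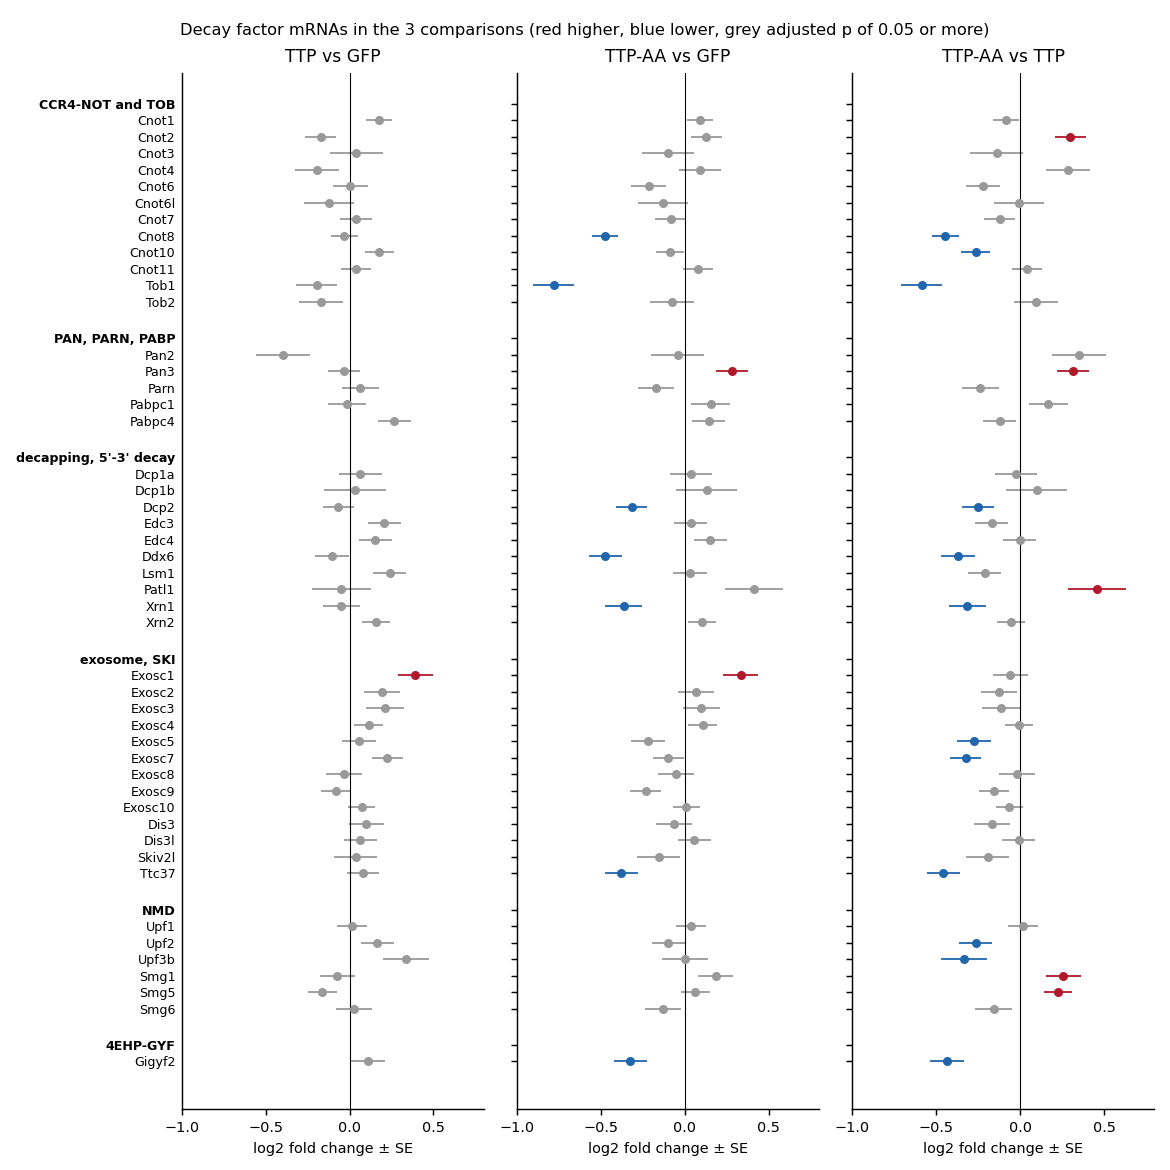
Log2 fold change (horizontal axis) of each of the 47 members, grouped by complex, in the 3 comparisons, with the SE of the DESeq2 model fitted over all 9 libraries (3 per group). Red points are higher and blue points lower at an adjusted p under 0.05, and grey points did not pass. Coloured points number 1 in TTP vs GFP, 9 in TTP-AA vs GFP and 17 in TTP-AA vs TTP, the lowest being Tob1 at -0.78 and the highest Patl1 at 0.46.

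Within CCR4-NOT, the deadenylase Cnot8 and the adaptor Tob1 were lower in cells with TTP-AA than in both other groups, while the scaffold Cnot1 and the other deadenylases did not pass the test. Tob1 encodes an antiproliferative protein that joins the CNOT7 or CNOT8 deadenylase to poly(A)-binding protein. The gene lies at chr11:94211454-94215495 on the + strand of GRCm38. Its fitted level in ppm in replicates 1, 2 and 3 was 51.2, 45.4 and 38.6 in GFP, 44.4, 39.6 and 33.3 in TTP, and 29.6, 26.2 and 22.3 in TTP-AA. All 3 TTP-AA values lay below all 6 others. For fitted means this says only that the fitted change exceeded the model's replicate-number term, not that replicates agreed. The log2 fold change was -0.19 ± 0.12 (SE) in TTP vs GFP (DESeq2 adjusted p = 0.360), -0.78 ± 0.12 in TTP-AA vs GFP (adjusted p = 1.24e-08) and -0.59 ± 0.12 in TTP-AA vs TTP (adjusted p = 2.42e-05), and the level in TTP-AA was 0.582 times that in GFP. Tob1 showed the lowest value of any member in both comparisons of TTP-AA.

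Cnot8, one of the paired catalytic CAF1-type deadenylases (chr11:58104153-58118594, + strand), was at 103, 108 and 94.8 ppm in GFP, 100.0, 106 and 91.7 in TTP, and 73.5, 77.2 and 67.7 in TTP-AA. The TTP-AA values were again all lower than the other 6, with the same limit. Its log2 fold change was -0.03 ± 0.08 in TTP vs GFP (DESeq2 adjusted p = 0.885), -0.47 ± 0.08 in TTP-AA vs GFP (adjusted p = 1.38e-07) and -0.45 ± 0.08 in TTP-AA vs TTP (adjusted p = 5.13e-07). Tob1 and Cnot8 are both on chromosome 11, whose genes had medians of -0.10 in TTP-AA vs GFP and -0.14 in TTP-AA vs TTP. With these subtracted Tob1 stood at -0.68 and -0.45 and Cnot8 at -0.37 and -0.31, all still passing the test. The structural subunit Cnot2 rose in TTP-AA vs TTP by 0.30 ± 0.09 and Cnot10, also structural, fell by 0.27 ± 0.09 on the log2 scale. Cnot2 lies on chromosome 10, with a median of 0.15 there, and its centred value of 0.15 did not pass (recomputed DESeq2 adjusted p = 0.235). The 8 other CCR4-NOT genes lay between -0.22 (Cnot6) and 0.29 (Cnot4) in TTP-AA vs TTP without passing.

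Several factors of the machinery come in pairs of related genes, and 3 pairs moved unequally when judged by the deposited SEs. In TTP-AA vs GFP the log2 fold change of Tob1 was lower than that of Tob2 by a difference of -0.71 (95% interval -1.06 to -0.36, from the SEs of both genes taken as independent), and in TTP-AA vs TTP by -0.68 (-1.03 to -0.33). Cnot7 exceeded Cnot8 by 0.39 (0.15 to 0.63) and 0.32 (0.08 to 0.56). Xrn1 was below Xrn2 by -0.47 (-0.74 to -0.20) in TTP-AA vs GFP, and in TTP-AA vs TTP the interval of -0.53 to 0.01 included 0. The intervals of Cnot6 minus Cnot6l, Dcp1a minus Dcp1b, Pabpc1 minus Pabpc4 and Dis3 minus Dis3l included 0 in all 3 comparisons, with bounds as far as -0.58 and 0.59. The 3 pairs stand out after 21 differences were computed, and the intervals are not adjusted for that number. The SEs were not widened by the central spread (1.77 in TTP-AA vs GFP and 2.17 in TTP-AA vs TTP). Chromosome medians were not subtracted either. Whether the differences hold under these settings was not computed. On the level scale, Cnot8 made up 76.8% of the summed Cnot8 and Cnot7 level per kb in GFP, 76.0% in TTP and 71.7% in TTP-AA, while the sum went from 50.3 to 49.5 to 38.5 ppm per kb. Tob1 made up 83.0%, 82.8% and 75.0% of Tob1 and Tob2. Xrn1 made up 4.86%, 4.23% and 3.56% of Xrn1 and Xrn2. The size of these shares depends on the merged exon length used. That length was 18585 bases for Xrn1 and 3981 for Xrn2, whose searched transcripts have 5499 and 3434. For Cnot8 and Cnot7 it was 2636 and 5821, against transcripts of 2099 and 2982.

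**Figure D3:**
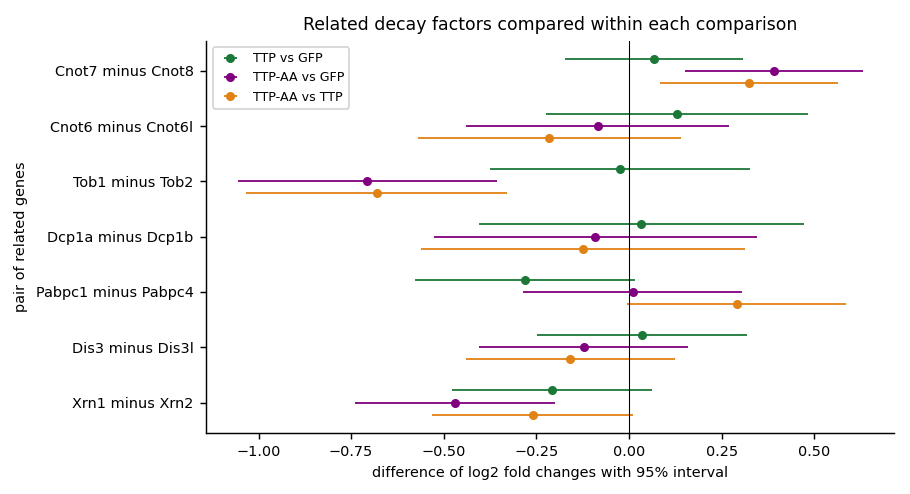
Difference between the log2 fold changes of 7 pairs of related decay factors (horizontal axis, first gene minus second) in each comparison, with 95% intervals. The intervals rest on the deposited SEs, not widened by the central spread, and chromosome medians were not subtracted. In the comparisons of TTP-AA the intervals of Tob1 minus Tob2 and Cnot7 minus Cnot8 do not reach 0, and that of Xrn1 minus Xrn2 does not in TTP-AA vs GFP.

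Of the poly(A) factors, Pan3 alone passed the test, and it rose. PAN3 is the regulatory subunit of the PAN2-PAN3 deadenylase, which trims long poly(A) tails ahead of CCR4-NOT. Pan3 (chr5:147430161-147548502, + strand) was at 85.6, 61.3 and 77.2 ppm in GFP, 83.1, 59.7 and 74.4 in TTP, and 104, 74.0 and 93.3 in TTP-AA. The groups overlapped because the replicate-number term was larger than the difference between them, and the model gives the groups the same order in every replicate number. The log2 fold change was -0.03 ± 0.10 in TTP vs GFP (DESeq2 adjusted p = 0.894), 0.28 ± 0.09 in TTP-AA vs GFP (adjusted p = 0.0209) and 0.32 ± 0.09 in TTP-AA vs TTP (adjusted p = 0.00504). Its catalytic partner Pan2 had 0.35 ± 0.16 in TTP-AA vs TTP and did not pass (DESeq2 adjusted p = 0.0834). Parn, a nuclear poly(A)-specific ribonuclease, Pabpc1 and Pabpc4 lay between -0.24 and 0.17 in that comparison without passing.

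In decapping and 5′-3′ decay, the helicase Ddx6, the decapping enzyme Dcp2 and the exonuclease Xrn1 fell in both comparisons of TTP-AA. DDX6 links CCR4-NOT to decapping and to translational repression. Ddx6 (chr9:44604892-44640731, + strand) was at 293, 176 and 269 ppm in GFP, 271, 163 and 247 in TTP, and 209.8, 126 and 193 in TTP-AA. The groups overlapped since replicate 2 was low in all 3. Its log2 fold change was -0.10 ± 0.10 in TTP vs GFP (DESeq2 adjusted p = 0.606), -0.47 ± 0.10 in TTP-AA vs GFP (adjusted p = 5.38e-05) and -0.37 ± 0.10 in TTP-AA vs TTP (adjusted p = 0.00152). Dcp2 fell by 0.32 ± 0.09 and 0.25 ± 0.09 on the log2 scale in TTP-AA vs GFP and TTP-AA vs TTP. Xrn1 fell by 0.36 ± 0.11 and 0.32 ± 0.11.

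The scaffold Patl1, which joins DDX6 to the LSM ring and the decapping enzyme, was higher. Patl1 (chr19:11912399-11945091, + strand) was at 15.8, 6.32 and 9.31 ppm in GFP, 15.2, 6.10 and 8.89 in TTP, and 20.9, 8.34 and 12.3 in TTP-AA. The spread between replicate numbers was wider than that between groups. The log2 fold change was -0.05 ± 0.17 in TTP vs GFP (DESeq2 adjusted p = 0.917), 0.41 ± 0.17 in TTP-AA vs GFP (adjusted p = 0.0788) and 0.46 ± 0.17 in TTP-AA vs TTP (adjusted p = 0.0301). The other decapping members, Dcp1a, Dcp1b, Edc3, Edc4, Lsm1 and Xrn2, passed in no comparison.

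**Figure D4:**
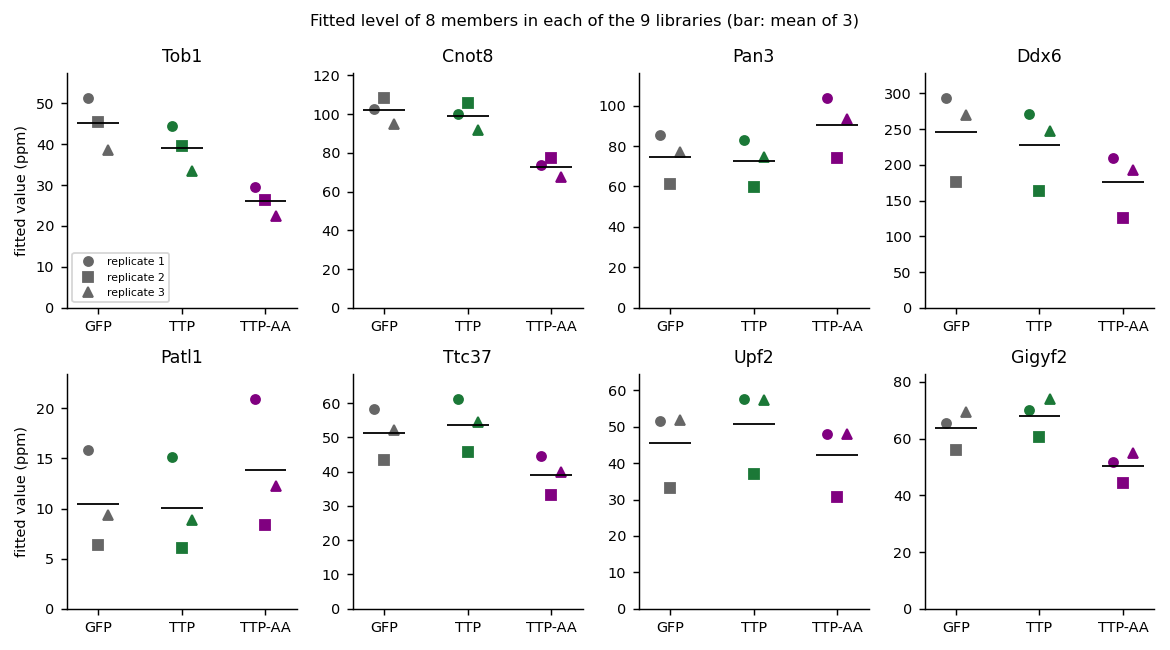
Fitted level in ppm of the library sum (vertical axis from 0) of 8 members in each of the 9 libraries, with symbols for replicate numbers 1, 2 and 3 and a bar for the mean of the 3. Tob1 and Cnot8 are lower in the 3 TTP-AA libraries than in the 6 others, and Pan3 and Patl1 have their highest mean in TTP-AA. The values carry no scatter beyond the model's terms, so the order of the groups is the same in every replicate number by construction.

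Of the 13 exosome and SKI members 3 fell in TTP-AA vs TTP, a share of 23.1% beside 28.6% of all listed genes called in either direction. All 13 were below 0 as deposited, from -0.46 to -0.01, but Exosc1, Exosc4 and Dis3l were above 0 with chromosome medians subtracted, Exosc4 and Dis3l with the all-gene median subtracted, and Exosc4 with the GC and length trend removed. Ttc37 is the scaffold of the SKI complex, which feeds mRNAs into the cytoplasmic exosome. Ttc37 (chr13:76098734-76190316, + strand) was at 58.2, 43.3 and 52.2 ppm in GFP, 61.1, 45.6 and 54.5 in TTP, and 44.5, 33.0 and 39.9 in TTP-AA. All TTP-AA values were below those of TTP, and TTP-AA replicate 1 overlapped the lowest GFP library. Ttc37 had a log2 fold change of 0.08 ± 0.10 in TTP vs GFP (DESeq2 adjusted p = 0.710), -0.38 ± 0.10 in TTP-AA vs GFP (adjusted p = 0.00139) and -0.46 ± 0.10 in TTP-AA vs TTP (adjusted p = 3.43e-05). The ring subunits Exosc5 and Exosc7 fell in TTP-AA vs TTP by 0.28 ± 0.10 and 0.32 ± 0.09 on the log2 scale. Exosc1 rose in TTP-AA vs GFP by 0.33 ± 0.10, and with the chromosome 19 median of 0.10 subtracted its 0.23 did not pass (recomputed DESeq2 adjusted p = 0.126). Exosc9, another ring subunit, had -0.23 ± 0.09 in TTP-AA vs GFP and lay just outside the threshold (DESeq2 adjusted p = 0.0524). The helicase Skiv2l, partner of TTC37 in the SKI complex, had -0.19 in TTP-AA vs TTP and did not pass, and neither did the catalytic subunits Exosc10, Dis3 and Dis3l.

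Of the 6 NMD factors, 2 rose and 2 fell in TTP-AA vs TTP, where 28.6% of all listed genes were called, and none passed in TTP vs GFP or TTP-AA vs GFP (DESeq2, 1 and 0 at an unadjusted p under 0.05), where 9.16% and 17.9% were. Whether the comparisons differ for this group was not tested. UPF2 bridges the helicase UPF1 and UPF3B at exon junctions, and Upf2 had the smallest adjusted p of the group. Upf2 (chr2:5951469-6056703, + strand) was at 51.6, 33.1 and 51.8 ppm in GFP, 57.5, 37.1 and 57.4 in TTP, and 47.9, 30.7 and 48.0 in TTP-AA, so that the groups overlapped. Upf2 had a log2 fold change of 0.17 ± 0.10 in TTP vs GFP (DESeq2 adjusted p = 0.324), -0.10 ± 0.10 in TTP-AA vs GFP (adjusted p = 0.558) and -0.26 ± 0.10 in TTP-AA vs TTP (adjusted p = 0.0281). Upf3b, its partner at the junction, fell there by 0.34 ± 0.14, while the kinase Smg1 rose by 0.26 ± 0.10 and Smg5, an adaptor that draws decay enzymes to phosphorylated UPF1, by 0.23 ± 0.09. Chromosome medians of -0.07 for Upf2 and 0.09 for Smg5 reduced these to -0.20 and 0.13, below the threshold, and Smg1 also missed it narrowly (recomputed DESeq2 adjusted p = 0.0573). Upf1 and Smg6 passed in no comparison.

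GIGYF2, the scaffold of the cap-binding repressor 4EHP that TTP contacts through tetraproline motifs, was the only member of its group. Gigyf2 (chr1:87326998-87450796, + strand) was at 65.4, 56.1 and 69.3 ppm in GFP, 70.2, 60.5 and 73.9 in TTP, and 51.9, 44.5 and 55.0 in TTP-AA. These fitted means, which hold no scatter, did not overlap between TTP-AA and the others. The log2 fold change was 0.11 ± 0.10 in TTP vs GFP (DESeq2 adjusted p = 0.580), -0.32 ± 0.10 in TTP-AA vs GFP (adjusted p = 0.0105) and -0.43 ± 0.10 in TTP-AA vs TTP (adjusted p = 0.000155). Of its exon bases 4.38% overlap Kcnj13 on the opposite strand, and strand use in the counting was not stated. Such overlap was also present in the called members Cnot2 (5.69%), Exosc5 (5.66%) and Xrn1 (4.24%). The median change of chromosome 1 was 0.02 and 0.00 in the 2 comparisons, and the call held with it subtracted.

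**Figure D5:**
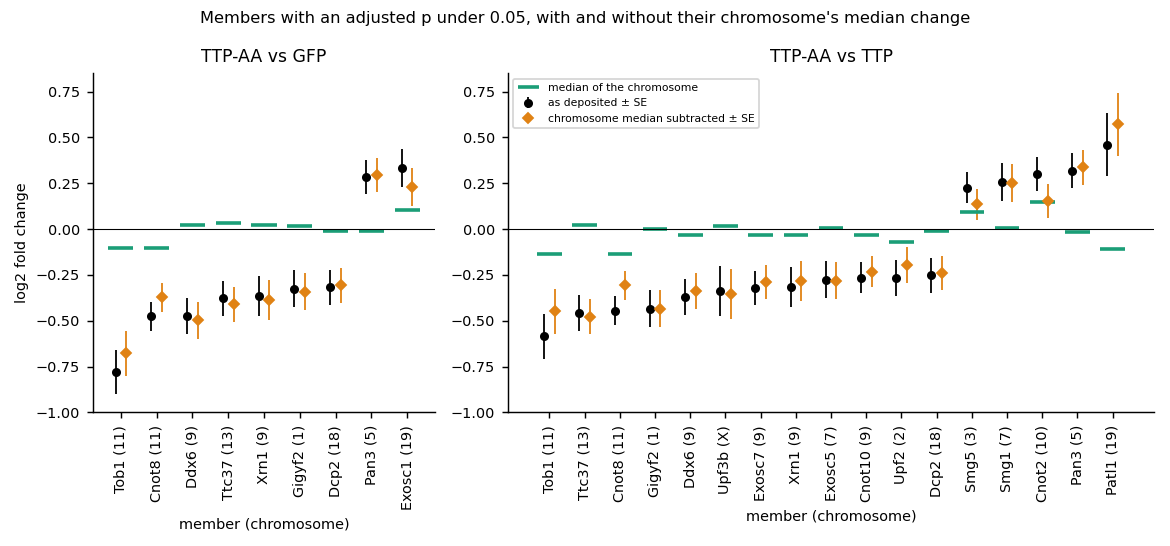
Log2 fold change (vertical axis) of the members with an adjusted p under 0.05 in TTP-AA vs GFP (9) and TTP-AA vs TTP (17), as deposited and with the median of their chromosome subtracted, each with the deposited SE; the chromosome is in parentheses. Tob1 and Cnot8 move from -0.78 and -0.47 to -0.68 and -0.37 in TTP-AA vs GFP, and Cnot2 moves from 0.30 to 0.15 in TTP-AA vs TTP.

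The replicate-number term of the model was wide for some members. Between its highest and lowest level a member moved by a median of 0.35 on the log2 scale, as all listed genes did with 0.33, and the largest movement was 1.25. It was taken into account in the tests above and separates the symbols in the plot of fitted levels.

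Partners of the machinery outside the 47 genes were followed through a fixed list of 52 genes, of which 51 were listed. In TTP vs GFP 2 rose and 2 fell, in TTP-AA vs GFP 1 rose and 6 fell, and in TTP-AA vs TTP 4 rose and 10 fell. These are 7.84%, 13.7% and 27.5% of the 51, beside 9.16%, 17.9% and 28.6% of all listed genes. Among them Btg1, an antiproliferative relative of TOB that also binds the CAF1-type deadenylases, fell by 0.50 ± 0.14 on the log2 scale in TTP vs GFP and rose by 0.68 ± 0.14 in TTP-AA vs TTP. In TTP vs GFP the exonuclease Dis3l2 fell by 0.40 ± 0.13 and the scavenger decapping enzyme Dcps rose by 0.34 ± 0.10. Rbm8a, the Y14 subunit of the exon junction complex, fell by 0.55 ± 0.10 in TTP-AA vs GFP and by 0.41 ± 0.10 in TTP-AA vs TTP. In TTP-AA vs GFP Magohb, its binding partner, fell by 0.39 ± 0.12 and Zcchc7, of the nuclear TRAMP polyadenylation complex, rose by 0.41 ± 0.10. Mtrex (listed as Skiv2l2), the helicase of the nuclear exosome, fell by 0.51 ± 0.09 in TTP-AA vs TTP.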

How the data were processed

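The 9 libraries of ribosomal RNA-depleted total RNA (50-base single-end reads) were grouped by title. The authors trimmed reads, aligned them with TopHat2 (2.0.12 per the processing notes) to GRCm38 keeping up to 2 placements, counted them per Ensembl gene and fitted DESeq2 (1.6.3) with library date and condition, Wald tests and the Cook's filter off. The deposited library values (signal) proved to be fitted means. No value was 0, the smallest being 0.0464, 4 singular values were nonzero where 8 are possible, and log2 ratios of same-numbered libraries matched the deposited log2 fold changes, apart from 1 constant each, within 1.5e-14. No count per library was used and the depth in reads is unknown, so no counting interval is given. The deposited comparison tables hold the authors' log2 fold change, SE, Wald score, p-value and adjusted p-value, which were used as the only source of error, the first of repeated rows per gene being kept. Base means were deposited as signal by the authors.

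Levels were divided by the library sum and, between genes, by the merged length of all annotated exons of the gene (GENCODE M21). This scale differed from the deposited log2 fold changes by -0.02 to 0.01. Members were called at an adjusted p under 0.05. Full values were given for called members with an absolute log2 fold change of at least 0.4 or, failing that, the smallest adjusted p of a complex, the SE for other called members, and counts and ranges for the rest; of other decay genes, the 3 largest called changes per comparison were named. Members and lists were chosen with earlier results of these data known. Scripts (Python 3.11.15, with pandas 2.3.3, numpy 2.4.6, scipy 1.17.1) were tested on simulated data. Alternatives were Wald scores rescaled by their interquartile range over that of a standard normal, other gene filters, a threshold of 0.01, and centring on all genes, on the chromosome, or on GC content and length.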

Additional observations from a re-analysis of the deposited data

Results flagged for a closer look

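The comparison TTP-AA vs TTP tests whether the change against GFP differed between the 2 forms of TTP, and 17 of the 47 members passed it (36.2%, DESeq2, adjusted p under 0.05), beside 28.6% of all listed genes. The members had the smaller median SE (0.10 against 0.13), so these shares are not at equal precision. The change was lower with TTP-AA for Cnot8 by a log2 difference of -0.45, for Cnot10 by -0.27, for Tob1 by -0.59, for Dcp2 by -0.25, for Ddx6 by -0.37, for Xrn1 by -0.32, for Exosc5 by -0.28, for Exosc7 by -0.32, for Ttc37 by -0.46, for Upf2 by -0.26, for Upf3b by -0.34 and for Gigyf2 by -0.43. It was higher with TTP-AA for Cnot2 by 0.30, for Pan3 by 0.32, for Patl1 by 0.46, for Smg1 by 0.26 and for Smg5 by 0.23. Of the 17, 8 also passed in TTP-AA vs GFP and none in TTP vs GFP. In TTP vs GFP 9 of the 47 members had an unadjusted p under 0.05. Both comparisons of TTP-AA share its libraries, and the matching overlap over all listed genes was not computed. None of the 17 passed once scores were rescaled by the central spread, where 4 members had an unadjusted p under 0.05.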

How the results depend on the processing

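Dividing the Wald scores by their central spread (1.51, 1.77 and 2.17) changed the most. Genes called went from 1097 to 247 in TTP vs GFP, from 2361 to 197 in TTP-AA vs GFP and from 3780 to 266 in TTP-AA vs TTP, with 78 higher and 169 lower, 124 and 73, and 193 and 73 (as deposited 489 and 608, 1203 and 1158, 1855 and 1925). Members called went from 1, 9 and 17 to 0, 2 and 0 (1, 4 and 4 at an unadjusted p under 0.05). A threshold of 0.01 left 616 and 1398 genes in TTP vs GFP and TTP-AA vs GFP and 9 members in TTP-AA vs TTP. With chromosome medians subtracted 0 members passed in TTP vs GFP, and in TTP-AA vs TTP 2 were higher and 13 lower (as deposited 5 and 12), with Cnot2, Upf2, Smg1 and Smg5 lost and Parn and Exosc9 gained. Exosc9 was gained in TTP-AA vs GFP among genes with a mean of at least 50 and among genes in all comparisons. Upf3b was lost with the all-gene median subtracted and Smg1 with the GC and length trend removed. Of the 18 members called at least once, none changed sign in a comparison in which it was called. With chromosome medians subtracted, 17 of the 141 values of the 47 members changed sign, none of them called. Among the 18 members these went to 0.038 for Smg5 in TTP vs GFP, -0.021 for Upf3b in TTP-AA vs GFP and 0.051 for Exosc1 in TTP-AA vs TTP. The cause of the losses was not tested. No paired analysis was possible because the library values are fitted means without scatter, and leaving out replicates and limma with a block were not run for the same reason. The authors' model already held a library date term, which split the libraries as their numbers do. The depth in reads is unknown, so what it limits is not known beyond the SE.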
